A study of Mus musculus with 8 samples.

Results

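The proteins of the small ribosomal subunit were followed through their transcripts in injured mouse pancreatic acinar cells, with and without obeticholic acid. The set comprised the 35 rows, of 54427 listed genes, whose symbol is Rpsa or Rps followed by a number with an optional letter and digit, leaving out Rps27a, the S6 kinases and rows with a -ps suffix. GENCODE M21 annotates 31 of them as protein coding and 4 as pseudogenes (Rps4l, Rps3a2, Rps3a3 and Rps12l1). Of the 35, 34 reached a mean of 1 CPM and were tested, and Rps12l1 was listed at 0 in all 8 libraries.

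The small subunit binds messenger RNA and decodes it, while the large subunit forms the peptide bonds. Each small subunit holds a ribosomal RNA and 1 copy of each of its proteins, which form a head, a body and a platform around the decoding centre. The transcripts of these proteins carry a pyrimidine tract at their start, through which mTORC1 and Larp1 control their translation, and the acinar cell, which exports digestive enzymes, is among the cells richest in ribosomes.

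The cells were primary acinar cells from wild-type mice, cultured in medium with fetal bovine serum and injured with 1 µM cholecystokinin octapeptide for 6 h. Cholecystokinin is a hormone that drives enzyme secretion and injures acinar cells at high concentration. By their titles, 4 libraries were the injury alone (AP) and 4 the injury with OCA (AP_OCA), which usually stands for obeticholic acid, a bile acid derivative that activates the receptor FXR. OCA was used at 2.5 µM, and the treatment text is the same for all 8 samples, so that AP received none rests on the titles. No library of uninjured cells is analysed here. The labels do not say whether replicates came from separate animals, so the p-values measure the spread between these samples, which may be technical.

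Values are given as CPM, the deposited values taken back from log2 and scaled to 1000000 per library. The libraries shared nearly the same upper distribution, their 5000 highest values differing by at most 1.29% rank by rank, and differed at the low end. A CPM value of an abundant gene is therefore a place in a shared order, and the depth of each library is unknown. AP_OCA replicate 2 stood apart and is shown apart. It had 21010 genes above 0, against 15394 to 16640 in the other 7. Its 11 lymphocyte markers summed to 3547 CPM, against 3.80 to 38.2 in AP and 2.13 to 4.45 in the other AP_OCA libraries, where Cd3e, Cd3g and Cd2 were at 0. Its 9 myeloid markers summed to 11001 CPM, against 61.8 to 162 in the other 7 libraries, and its 7 islet markers to 8.95 CPM, against 502 to 2132. Acinar markers were abundant in all 8 libraries, summing to 362869 CPM there and to 368733 to 389489 in the others, a sum set mostly by top genes whose values the shared distribution nearly fixes. In AP_OCA replicate 2, 4 of the 11 acinar markers lay more than 2-fold below every other library, and the 5 ductal markers summed to 8.22 CPM, against 112 to 241. The part of these markers in the values of AP_OCA replicate 2 was not tested. In such bulk libraries, fewer cells of a type and less RNA per cell cannot be told apart.

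Small subunit transcripts were more abundant in AP_OCA than in AP as a group. The 35 rows summed to 9249, 9763, 9955 and 8913 CPM in AP replicates 1 to 4, a mean of 9470 ± 476 CPM (SD, n = 4). They summed to 11755, 11391 and 15243 CPM in AP_OCA replicates 1, 3 and 4, a mean of 12796 ± 2127 CPM (SD, n = 3), and to 31786 CPM in AP_OCA replicate 2. Each AP_OCA sum lay above each AP sum, and AP_OCA replicate 4 was the highest after replicate 2. The ratio of the means without replicate 2 was 1.35, and it ran from 1.22 to 1.43 as each further library was left out. Marker sums of ductal, stellate and endothelial cells separated the same 7 libraries by group, while those of acinar, lymphocyte, myeloid and islet cells overlapped. The 5 ductal markers summed to 112 to 181 CPM in AP and 189 to 241 in AP_OCA replicates 1, 3 and 4, with 2 of 5 higher without overlap. The 6 stellate markers summed to 162 to 224 and 101 to 158 CPM, with 4 of 6 lower without overlap, and the 5 endothelial markers to 37.1 to 52.3 and 19.6 to 35.2 CPM, with 1 of 5 lower and 1 higher. Of 10894 genes tested in these 7 libraries, 1208 were higher and 1323 lower without overlap. The part of these markers in the members' levels was not tested.

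Across single genes the direction was nearly uniform, but few differences passed the test. With 8 libraries, limma called 0 of 11311 genes at an adjusted p under 0.05 (0% of all genes), and so 0 of the 34 members. At an unadjusted p under 0.05, 17 members were higher and none lower, against 7.31% of all genes higher and 8.87% lower. The log2 fold change, AP_OCA over AP, was positive for 33 of 34 members (49.1% of all genes), with a median of 0.68 against -0.013 over all genes, and in 24 of 34 the AP_OCA values lay wholly above the AP values (6.75% of all genes). Without AP_OCA replicate 2, 266 of 10894 genes passed (2.44%), 93 of them higher (0.854%), and 4 of these were members, among them Rps13, Rps15a and Rps27l. In these 7 libraries 33 of 34 members were positive (50% of all genes), the median was 0.47 against -9.0e-05 over all genes, 19 had an unadjusted p under 0.05 and were higher (11.8%), and 25 had no overlap between groups (11.1%). Fold changes, standard errors and adjusted p-values that follow are from limma on these 7 libraries unless 8 are named.

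**Figure D1:**
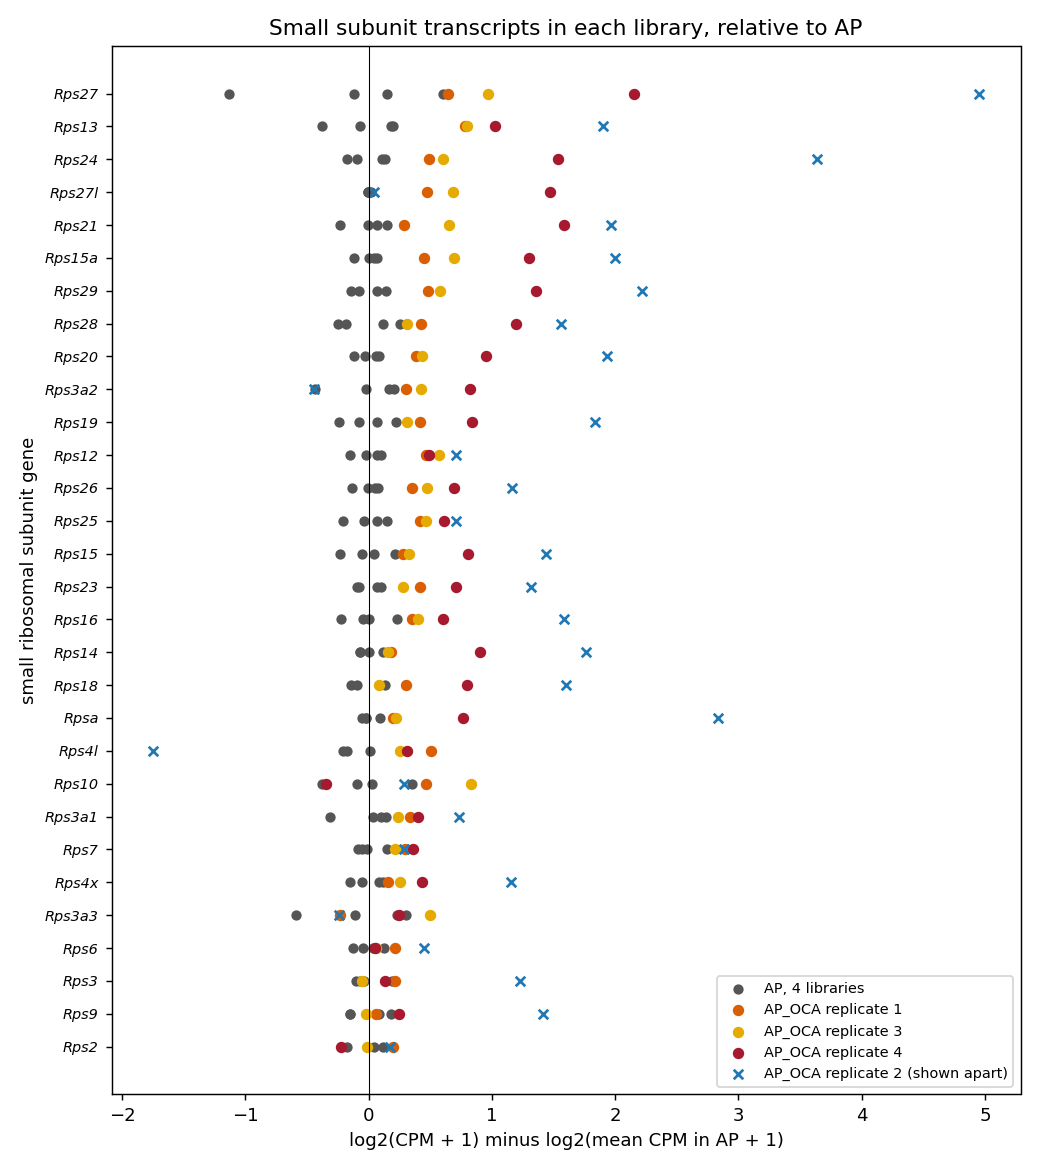
Small subunit transcripts in each library, as log2(CPM + 1) minus the log2 of the AP mean plus 1, for 30 of the members, one line per gene and one point per library. AP_OCA replicate 2 is marked by crosses. Over the 34 tested members it was the highest of 8 libraries in 27, and the share over all genes was not determined.

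Rps13, a protein of the body near the contact with the large subunit, had the lowest p of the set. It was at 135, 109, 163 and 162 CPM in AP replicates 1 to 4 and at 246, 248 and 291 CPM in AP_OCA replicates 1, 3 and 4, with 534 CPM in replicate 2. The groups did not overlap, and the AP_OCA libraries other than replicate 2 stayed close together. Rps13 rose by 0.89 ± 0.18 (log2 fold change ± SE, adjusted p = 0.0321).

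Rps15a, a protein of the body that binds the ribosomal RNA early in assembly, was at 144, 137, 142 and 127 CPM in AP. In AP_OCA it was at 188, 222 and 340 CPM in replicates 1, 3 and 4 and at 553 CPM in replicate 2. Its AP values were tight, its AP_OCA values were spread, and it rose by 0.81 ± 0.20 (adjusted p = 0.0488). Rps27l, a close relative of Rps27 that p53 induces in human cells, was at 57.9, 57.7, 57.9 and 58.7 CPM in AP and at 81.0, 94.1 and 163 CPM in AP_OCA replicates 1, 3 and 4. It rose by 0.88 ± 0.21 (adjusted p = 0.0488), and AP_OCA replicate 2, at 59.99 CPM, lay just above AP rather than far above it. With 8 libraries the adjusted p of Rps27l was 0.314, against 0.260 for Rps13.

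These 4 calls depended on single libraries and on the treatment of length. No member passed when any 1 of the 4 AP libraries or AP_OCA replicate 3 was left out of the 7. Of all genes, 7 to 14 passed in those 5 fits. There, 15 to 23 members had an unadjusted p under 0.05, as did 2134 to 2714 of 10875 to 10919 genes in either direction. Without AP_OCA replicate 1, 8 members and 973 of 10902 genes passed. Without replicate 4, 1 member, Rps13, and 119 of 10844 genes passed. AP_OCA replicate 4 was the highest of the 7 in 27 of 34 members, and the share over all genes was not determined. Without replicate 4 the median log2 fold change was 0.38, with 34 of 34 positive. In that fit 26 of 34 did not overlap, where 13.6% of all genes did not overlap. Each library's trend on transcript length and GC content was also removed. The log2 fold change in 7 libraries was then 0.18 for Rps27l (adjusted p = 0.469), 0.51 for Rps13 (adjusted p = 0.123) and 0.81 for Rps15a (adjusted p = 0.0649). That correction took Rps15a as a transcript of 5130 nucleotides, although its coding length is 393. With the shortest transcript of each gene used instead, Rps15a fell to 0.28, while Rps13 was at 0.56 and Rps27l at 0.25.

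**Figure D2:**
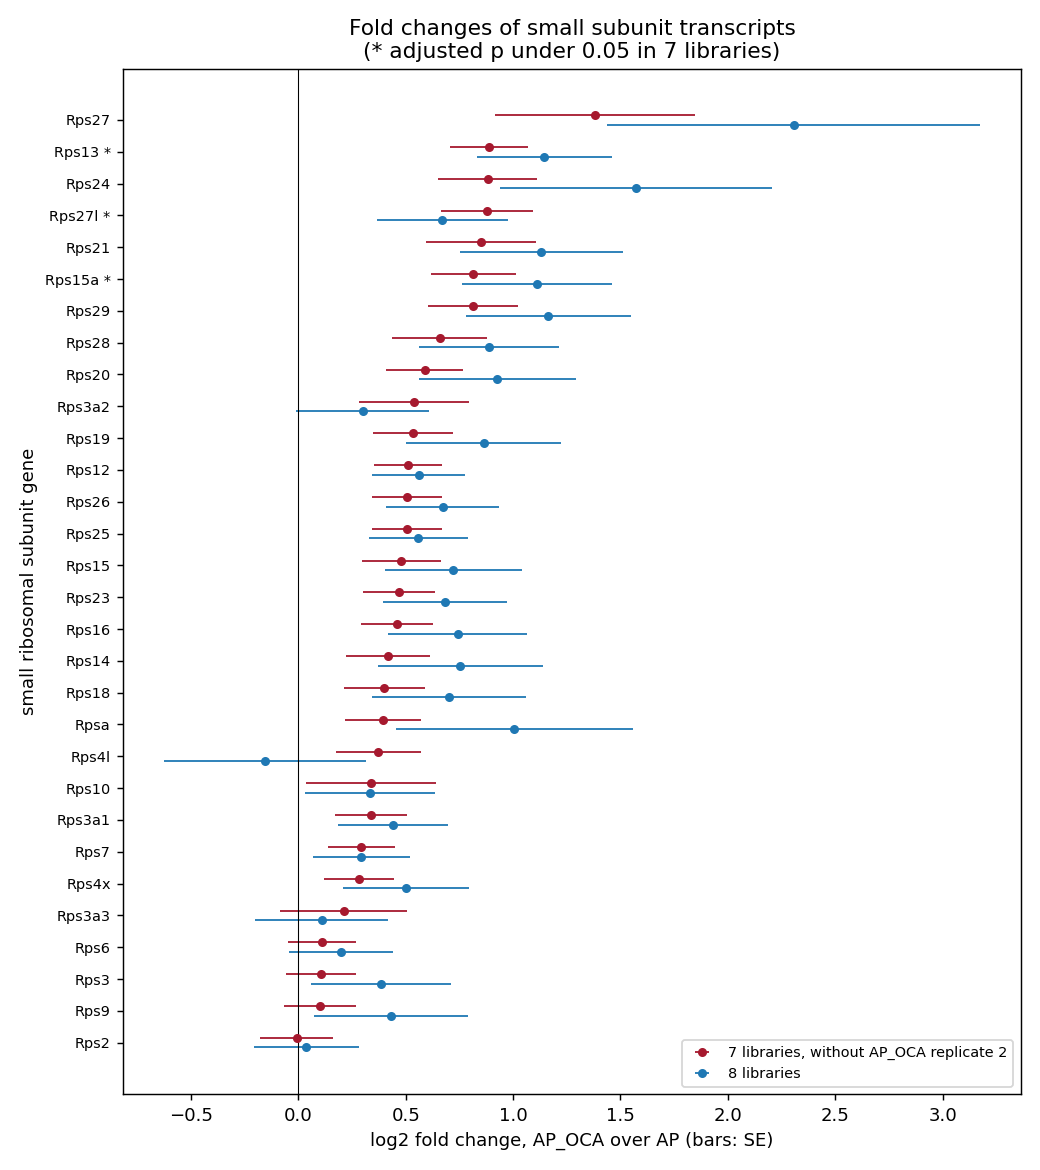
Log2 fold change of AP_OCA over AP for 30 of the members, ordered by size, with standard errors as bars, in 7 libraries (red) and in 8 (blue). Asterisks mark Rps13, Rps15a and Rps27l, which passed in 7 libraries; Rps27 is at the top at 1.38 and Rps2 at the bottom at -0.0087.

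The transcript starts of 10 members, with large and small fold changes and with Rpsa for its high level, are shown because the pyrimidine tract there is the known control element of the family. Each line gives 20 bases before and the first 20 bases from a RefSeq start (GRCm38.p6, gene strand), with runs of 5 or more pyrimidines that begin with C in capitals, and the 3 genes that passed the test and have an entry come first.
Rps13: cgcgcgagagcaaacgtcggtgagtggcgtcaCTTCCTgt
Rps15a: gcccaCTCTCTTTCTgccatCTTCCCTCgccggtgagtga
Rps27l: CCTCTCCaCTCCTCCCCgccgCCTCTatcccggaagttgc
Rps24: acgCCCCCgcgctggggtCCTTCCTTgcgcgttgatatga
Rps27: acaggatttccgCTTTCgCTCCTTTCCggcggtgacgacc
Rpsa: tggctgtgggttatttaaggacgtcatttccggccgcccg
Rps3: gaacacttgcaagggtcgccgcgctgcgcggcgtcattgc
Rps9: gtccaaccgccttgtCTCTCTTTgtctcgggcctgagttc
Rps6: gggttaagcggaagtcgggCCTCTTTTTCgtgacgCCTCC
Rps2: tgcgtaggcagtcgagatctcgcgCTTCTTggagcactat
The windows lie, in the same order, at chr7:116334171-116334210, chr7:118116128-118116167, chr9:66946066-66946105, chr14:24490658-24490697, chr3:90213629-90213668, chr9:120127746-120127785, chr7:99483690-99483729, chr7:3704021-3704060, chr4:86857348-86857387 and chr17:24720043-24720082. A run was found in 19 of the 24 members with a RefSeq entry (79.2%), against 49.9% of 27025 genes, read on the gene strand. Runs stood both in genes that passed, such as Rps15a, and in those with the smallest fold changes, such as Rps6 and Rps2, while Rpsa and Rps3 had none in this window. In the window from 250 bases before to 50 after the start, CCGGAA on either strand was found in 14 of the 24 (58.3%) against 16.7% of genes, and AAGATGGC on either strand in 2 (8.33%) against 3.19%; the complement of CCGGAA can overlap a pyrimidine run. These are matches of letters and not binding sites.

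Of the 13 proteins of the head, 1 passed in 7 libraries and was higher (0.854% of all genes). At an unadjusted p under 0.05, 9 were higher (11.8% of all genes). Their median log2 fold change was 0.50, with 9 of 13 not overlapping between groups (11.1% of all genes). Rps29, a zinc-binding protein that contacts the ribosomal RNA of the head, was at 99.5, 110, 116 and 95.1 CPM in AP, at 148, 157 and 272 CPM in AP_OCA replicates 1, 3 and 4 and at 493 CPM in replicate 2. The groups did not overlap, and its log2 fold change was 0.81 ± 0.21 (adjusted p = 0.0530). Rps20 was at 307, 333, 327 and 289 CPM in AP, at 409, 423 and 607 CPM in AP_OCA replicates 1, 3 and 4 and at 1204 CPM in replicate 2, again without overlap (0.59 ± 0.18, adjusted p = 0.0756). Rps19, the gene most often mutated in human Diamond-Blackfan anaemia, differed by 0.53 ± 0.18 (adjusted p = 0.102), and Rps28, a small protein at the exit of the messenger RNA channel, by 0.66 ± 0.22 (adjusted p = 0.0948). Rps18, a head protein near the contact with the large subunit, was at 457, 534, 553 and 473 CPM in AP, at 624, 534 and 880 CPM in AP_OCA replicates 1, 3 and 4 and at 1534 CPM in replicate 2. AP_OCA replicate 3 lay within the AP range, and the log2 fold change was 0.40 ± 0.19 (adjusted p = 0.202). Rps3, which lines the entry of the messenger RNA channel, was at 435, 457, 534 and 447 CPM in AP, at 544, 452 and 513 CPM in AP_OCA replicates 1, 3 and 4 and at 1097 CPM in replicate 2. Its groups overlapped, with a log2 fold change of 0.10 ± 0.16 (adjusted p = 0.719).

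In the body and platform, 2 of 17 genes passed and were higher, Rps13 and Rps15a (0.854% of all genes). The median log2 fold change was 0.42, and 14 of 17 did not overlap between groups (11.1% of all genes). Rps24, mutated in some people with Diamond-Blackfan anaemia, was at 351, 357, 305 and 287 CPM in AP, at 457, 493 and 944 CPM in AP_OCA replicates 1, 3 and 4 and at 4058 CPM in replicate 2. Every AP_OCA value lay above every AP value, and the log2 fold change was 0.88 ± 0.23 (adjusted p = 0.0553). Rps21, a small protein of the body, was at 88.0, 115, 103 and 109 CPM in AP, at 127, 164 and 314 CPM in AP_OCA replicates 1, 3 and 4 and at 409 CPM in replicate 2. The gap between AP replicate 2 and AP_OCA replicate 1 was narrow, and the log2 fold change was 0.85 ± 0.25 (adjusted p = 0.0756).

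Rpsa, also known as the laminin receptor, had the highest mean level of the set over 8 libraries. It was at 944, 944, 1018 and 925 CPM in AP, at 1097, 1117 and 1631 CPM in AP_OCA replicates 1, 3 and 4 and at 6826 CPM in replicate 2. Replicates 1 and 3 of AP_OCA were close above AP, and the log2 fold change was 0.40 ± 0.18 (adjusted p = 0.180). Rps14, a platform protein lost in the human 5q- syndrome, was at 534, 561, 607 and 534 CPM in AP, at 634, 624 and 1049 CPM in AP_OCA replicates 1, 3 and 4 and at 1901 CPM in replicate 2. The groups were separate by a narrow gap (0.42 ± 0.20, adjusted p = 0.198). Rps4x, an X-linked protein of the body, was at 509, 452, 498 and 423 CPM in AP, at 524, 561 and 634 CPM in AP_OCA replicates 1, 3 and 4 and at 1049 CPM in replicate 2, also without overlap (0.28 ± 0.16, adjusted p = 0.287).

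A further 10 protein-coding members, Rps3a1, Rps7, Rps12, Rps15, Rps16, Rps19, Rps23, Rps25, Rps26 and Rps28, averaged from 92.5 CPM (Rps28) to 465 CPM (Rps3a1) in AP. Their log2 fold changes ran from 0.29 to 0.66 with adjusted p-values of 0.0772 to 0.252. The groups did not overlap in any of these 10 (11.1% of all genes), and 8 were higher at an unadjusted p under 0.05 (11.8% of all genes).

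The 4 lowest log2 fold changes in 7 libraries were those of Rps2, Rps9, Rps3 and Rps6. Rps6, which S6 kinases phosphorylate, was at 544, 578, 487 and 513 CPM in AP and at 615, 553 and 550 CPM in AP_OCA replicates 1, 3 and 4, with 726 CPM in replicate 2. The groups overlapped, and the log2 fold change was 0.11 ± 0.16 (adjusted p = 0.684). Rps9, which bears on decoding accuracy in yeast, was at 363, 426, 457 and 363 CPM in AP and at 419, 396 and 477 CPM in AP_OCA replicates 1, 3 and 4, with 1075 CPM in replicate 2. Without replicate 2 its groups overlapped (0.10 ± 0.17, adjusted p = 0.736), and with 8 libraries the log2 fold change was 0.43 for Rps9 and 0.39 for Rps3. Rps2, a neighbour of Rps3 at the channel entry, was at 426, 481, 524 and 498 CPM in AP and at 553, 477 and 414 CPM in AP_OCA replicates 1, 3 and 4, and its log2 fold change was -0.0087 ± 0.17 (adjusted p = 0.978). AP_OCA replicate 2 held Rps2 at 544 CPM, within the range of the others, so that the library with the highest summed level did not have more of each small subunit transcript.

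AP_OCA replicate 2 was uneven across the set. It was the highest of 8 libraries in 27 of 34 members, the lowest in Rps4l and Rps3a2, and within the range of the other 7 in Rps2, Rps7, Rps27l, Rps10 and Rps3a3. It exceeded the highest other library by more than 2-fold in 5 members, with Rps27 at 6.99-fold, Rps24 at 4.30-fold, Rpsa at 4.19-fold, Rps9 at 2.26-fold and Rps3 at 2.02-fold. The shares of all genes highest in that library, or higher by more than 2-fold, were not determined. Rpsa made up 21.5% of the summed level there, against 9.33% to 10.7% in the other 7 libraries.

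The fold changes in 7 libraries were ordered by coding length. Over the 30 protein-coding members other than Rps10, set aside for the near-identical rows described further on, Spearman's rho between log2 fold change and coding length was -0.84. It was -0.61 with 8 libraries, -0.77 without AP_OCA replicate 4 and -0.84 without AP replicate 3; the points share libraries, so these are descriptions. The coefficient in 7 libraries was -0.62 with the mean level, taken over 8 libraries with AP_OCA replicate 2 included, and -0.28 with GC content. Split at 450 coding nucleotides, a limit chosen after the values were seen, the 16 shorter members (171 to 441 nucleotides) had fold changes of 0.46 to 1.38 with a median of 0.62. The 14 longer ones (456 to 888 nucleotides) ran from -0.0087 to 0.89, with a median of 0.34. All 16 shorter members, and 8 of the 14 longer ones, had no overlap between the groups, against 11.1% of all genes. The share among other genes of like length was not determined. Rps27, Rps12 and Rps3a1, which also have identical or near-identical rows, were kept among the 30. The 1.38 is the value of Rps27 alone, against 0.98 when summed with Rps27rt.

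**Figure D3:**
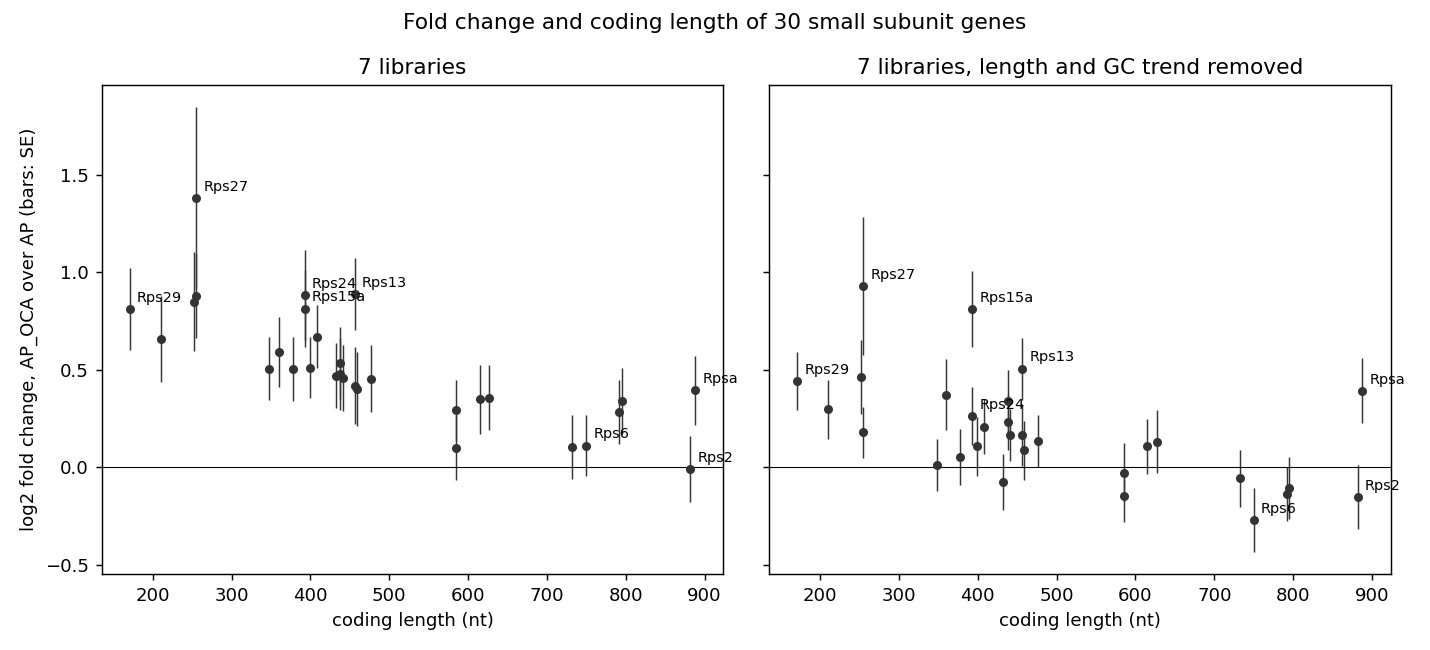
Log2 fold change of AP_OCA over AP in 7 libraries against coding length in nucleotides, 1 point per protein-coding member other than Rps10 with its standard error, as fitted (left) and with the length and GC trend removed (right). On the left the 16 members under 450 nucleotides lie between 0.46 and 1.38 and the longer ones between -0.0087 and 0.89; on the right the medians of both groups are 0.25 and 0.031.

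Length moved with the fold change across all genes as well. With tested genes split by transcript length into 5 bins of equal size, the median log2 fold change in 7 libraries was 0.30 in the bin of shortest transcripts, which held 30 of the members, and -0.15 in that of the longest. Split likewise by GC content, it was 0.26 in the lowest bin and -0.23 in the highest. With the trend on transcript length and GC content removed from each library, the members' median fell from 0.47 to 0.13, 25 of 34 were positive (50.1% of all genes) and 9 negative. In that fit 0 members passed, and 6 were higher at an unadjusted p under 0.05, against 9.49% of all genes. The shorter members then had a median of 0.25, the longer ones 0.031, and rho with coding length was -0.59. Rps6, Rps9, Rps4x and Rps3 were among the 9, at -0.27, -0.14, -0.14 and -0.055. The part of length in the members' result beyond this was not tested.

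Per kilobase of coding sequence, AP levels of the 30 members spanned 7.21-fold around a median of 613 CPM per kilobase. Rps14 was highest at 1226 CPM per kilobase, followed by Rps18 at 1099 and Rpsa at 1078. Rps27 at 170 and Rps27l at 228 CPM per kilobase were lowest, and for Rps27 the near-identical row below bears on that place.

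Rps27, a zinc-finger protein of the platform, had the largest fold change and shares its coding sequence with the Rps27rt row. Over 255 nucleotides Rps27 and Rps27rt were 100% identical in the GENCODE M21 annotation of GRCm38, so reads from the coding part cannot be assigned to either. Rps27 was at 19.2, 48.2, 66.2 and 39.7 CPM in AP, at 68.3, 85.5 and 196 CPM in AP_OCA replicates 1, 3 and 4 and at 1372 CPM in replicate 2. AP replicate 1 was low, where Rps27 held 27.5% of the sum of both rows against 63.8% to 86.8% elsewhere, and the log2 fold change of Rps27 alone was 1.38 ± 0.46 (adjusted p = 0.118). Summed, Rps27 and Rps27rt were at 69.8, 64.8, 85.1 and 62.3 CPM in AP, at 106, 104 and 240 CPM in AP_OCA replicates 1, 3 and 4 and at 1581 CPM in replicate 2. The sum was even across AP and did not overlap with AP_OCA, with a log2 fold change of 0.98 ± 0.26 (adjusted p = 0.0590).

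The coding sequence of Rps27l was 76.3% identical to that of Rps27, with no identical stretch longer than 11 bases, and the first 60 bases after the start codon are shown to set these relatives beside the identical pair (coding strand, capitals mark the 19 bases that differ).
Rps27: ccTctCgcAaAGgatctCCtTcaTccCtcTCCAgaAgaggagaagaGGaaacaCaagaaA
Rps27l: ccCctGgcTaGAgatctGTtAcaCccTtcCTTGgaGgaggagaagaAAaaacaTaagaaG
In AP_OCA replicate 2 the relatives lay far apart, with Rps27 at 1372 CPM and Rps27l at 59.99 CPM.

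Rps10, a head protein that is ubiquitylated on stalled ribosomes, was listed at 2.13, 2.93, 1.87 and 1.36 CPM in AP. In AP_OCA it was at 3.24, 4.46 and 1.42 CPM in replicates 1, 3 and 4, with 2.76 CPM in replicate 2. Its level was far below that of every other protein-coding member. The rows Rps10-ps1 and Rps10-ps2 held nearly the whole signal, Rps10 making up 0.906% to 3.47% of the sum of the 3 rows. Rps10-ps2 differs from the Rps10 coding sequence in 5 of 496 aligned bases (99.0% identical), of which 4 lie in this stretch of coding bases 379 to 438 (capitals mark them).
Rps10: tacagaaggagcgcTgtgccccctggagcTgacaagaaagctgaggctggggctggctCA
Rps10-ps2: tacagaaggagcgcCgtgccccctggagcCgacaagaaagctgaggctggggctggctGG
The 3 rows summed to 92.5 ± 12.2 CPM in AP (SD, n = 4) and to 132 ± 22.8 CPM in AP_OCA without replicate 2 (SD, n = 3). The log2 fold change of that sum was 0.51 ± 0.18 (adjusted p = 0.107), close to the median of the set, while that of the Rps10 row alone was 0.34 ± 0.30 (adjusted p = 0.502).

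**Figure D4:**
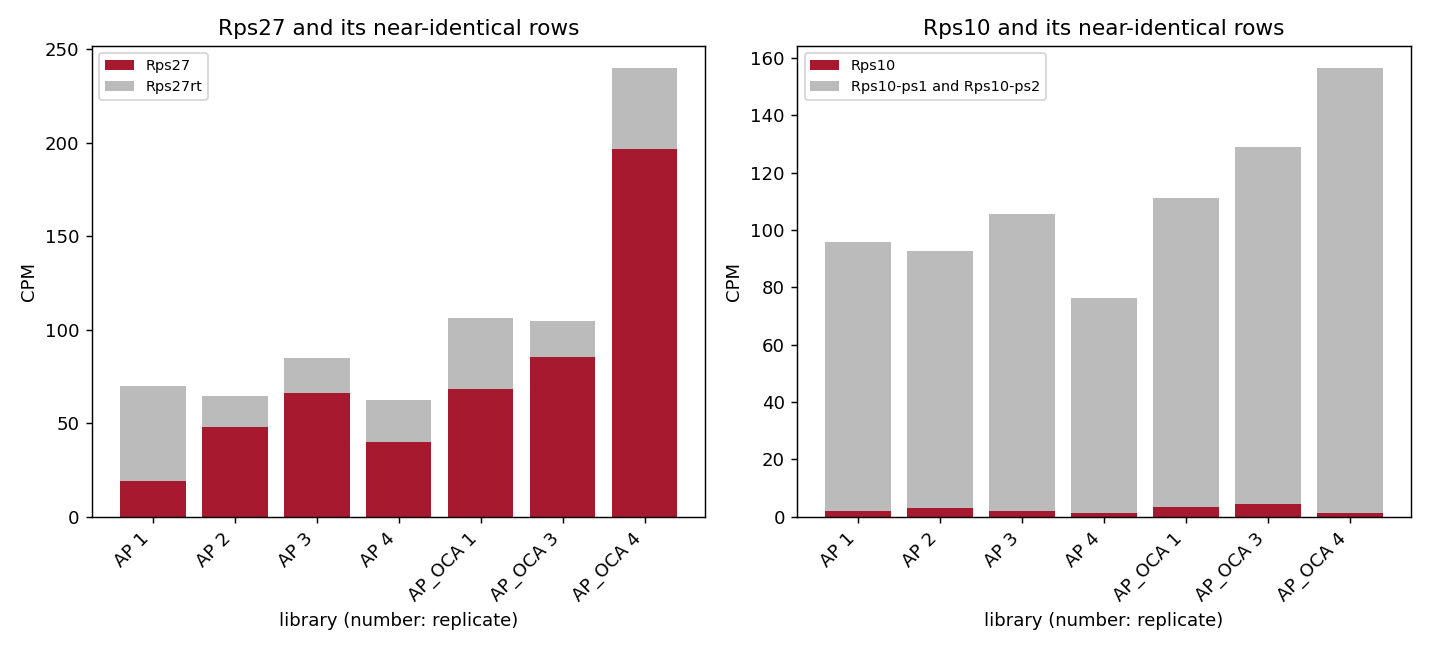
Stacked levels in CPM of Rps27 with Rps27rt (left) and of Rps10 with Rps10-ps1 and Rps10-ps2 (right) in the 7 libraries without AP_OCA replicate 2. Rps10 holds at most 3.47% of its stack, and the share of Rps27 is lowest in AP replicate 1, at 27.5%.

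Rps12 had a copy in Rps12-ps3 that was 100% identical over 399 coding nucleotides, and it held 69.1% to 79.0% of the sum. The sum had a log2 fold change of 0.53 ± 0.16 (adjusted p = 0.0682), near the 0.51 ± 0.16 of Rps12 alone (adjusted p = 0.0772). Rps3a2 and Rps3a3, annotated as processed pseudogenes, were 99.5% and 98.9% identical to Rps3a1 and stayed under 6 CPM, so their values are uncertain. Rps4l, 79.8% identical to Rps4x, was at 12.0, 11.7, 17.2 and 13.8 CPM in AP, at 19.8, 16.4 and 17.2 CPM in AP_OCA replicates 1, 3 and 4 and at 3.36 CPM in replicate 2. It was among the few members lowest in AP_OCA replicate 2, and its log2 fold change was 0.37 ± 0.20 without that library (adjusted p = 0.250) and -0.16 ± 0.47 with it (adjusted p = 0.876).

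The machinery that builds and uses the small subunit was examined through lists of known factors. Among small subunit assembly factors, 0 of 34 tested genes passed by limma in 7 libraries, 8 were higher and 2 lower at an unadjusted p under 0.05, where 11.8% of all genes were higher and 13.9% lower, and the median log2 fold change was 0.21. Imp3, part of the complex that processes the precursor RNA, differed by 0.62 ± 0.19 (adjusted p = 0.0756), and Emg1, a methyltransferase of the ribosomal RNA, by 0.55 ± 0.20 (adjusted p = 0.108). Initiation factors that bind the small subunit had a median of 0.35, with 25 of 27 positive and 0 passing, 11 being higher at an unadjusted p under 0.05. Eif1ax, which helps scanning for the start codon, differed by 0.89 ± 0.23 (adjusted p = 0.0530), and Eif3m, a subunit of the factor that bridges messenger RNA and small subunit, by 0.82 ± 0.22 (adjusted p = 0.0576). In AP_OCA replicate 2, Eif1ax was at 24.4 CPM, below its AP mean of 28.9 CPM, while Imp3 (31.9 CPM), Emg1 (43.5 CPM) and Eif3m (76.7 CPM) were above their AP means of 15.4, 20.3 and 45.2 CPM.

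Of 16 tested genes of the mTORC1 and S6 kinase axis, 0 passed by limma in 7 libraries, and 2 were higher and 4 lower at an unadjusted p under 0.05, against 11.8% and 13.9% of all genes. Of the 16, 5 were positive, and the median log2 fold change was -0.28. The medians of this and the other gene lists were taken without the length and GC correction, and the part of length and GC in them was not tested. Rps6ka2, a kinase of the RSK family, differed by -0.71 ± 0.20 (adjusted p = 0.0654), and Eif4ebp2, which holds back cap-dependent initiation, by -0.65 ± 0.19 (adjusted p = 0.0683). AP_OCA replicate 2 held Rps6ka2 at 1.64 CPM, against an AP mean of 36.4 CPM, and Eif4ebp2 at 43.2 CPM, above its AP mean of 31.2 CPM. With 8 libraries the log2 fold change of Eif4ebp2 was -0.37 (adjusted p = 0.531). Proteins of the large subunit, for comparison, had a median of 0.52 over 48 tested genes in 7 libraries. Of these, 9 passed and were higher (0.854% of all genes) and 38 did not overlap (11.1% of all genes). The difference from the small subunit was not tested.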

How the data were processed

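RNA sequencing of 8 libraries was deposited as 1 table of 54427 genes. The authors' deposited values are log2 of a count-like number plus 0.01, as the values show: the lowest is -6.64 and the highest 20.57 in every library. The equal maxima and nearly equal upper distributions show quantile normalisation, which hides depth; the low ends differ. The build was mm10, per the submitters' processing notes; aligner, counting tool and annotation are not given in the sources used here. Design notes had allowed for counts or linear values, so values were taken back to linear scale, scaled to 1000000 per library and written CPM. Genes averaging 1 CPM or more were tested on log2(CPM + 1), a scale that understates changes of low genes, with limma 3.58.1 in R 4.3.3 (trend, robust) and Benjamini-Hochberg adjustment over all genes at 0.05, with 8 libraries and without AP_OCA replicate 2. The fit was tested on simulated data. Annotation was GENCODE M21 (53749 genes matched), promoters RefSeq. Values per library are given for members that passed, the 8 of lowest p, the 4 of lowest fold change, the 5 of highest mean, and Rpsa, Rps6, Rps4x, Rps4l, Rps27 and Rps27l; Rps10 and the copies were added after their values were seen, as were Rps12, Rps19 and Rps28. Up to 2 genes are named per pathway list. Members and lists were chosen with earlier results of these data known. Alternatives were other pseudocounts, filters, centring, weights, the replicate block, length and GC correction and left-out libraries. The results of some members are not reported here.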

Additional observations from a re-analysis of the deposited data

Results flagged for a closer look

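Rps4l in AP_OCA was marked because 1 of the 4 libraries, AP_OCA replicate 2 at 3.36 CPM, stood far from the others. On the log2(CPM + 1) scale it was separated from the nearest by 0.887 of the group's range. That is above Dixon's 95% critical value for 4 samples, and the mark holds for that scale only. Rps4l in AP_OCA was the only one marked among 68 groups examined (34 members in each of AP and AP_OCA), and chance marks about 1 in 20.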

How the results depend on the processing

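Other settings moved how many genes passed, and the length and GC corrections also moved the direction of members. In 7 libraries, 33 or 34 of 34 members were positive outside those corrections (30 of 31 with a filter at 5 CPM). With the trend removed, with the shortest transcript, and without AP replicate 3 as well, 25, 25 and 24 of 34 were positive. With the trend removed, 50.1% of all genes were positive. Without AP_OCA replicate 2, the calls (genes, then members) changed from 266 and 4 to 156 and 1 with a pseudocount of 0.1 CPM, 113 and 1 on the deposited log2 values, 13 and 0 without the limma trend (19 members at an unadjusted p under 0.05), 0 and 0 without a filter (3255 genes and 25 members at an unadjusted p under 0.05) and 1675 and 14 with quality weights. With the length and GC trend removed they were 111 and 0, with the shortest transcript 134 and 0, and without AP replicate 3 as well 37 and 0; the members' median was then 0.13, 0.18 and 0.10, with 6, 9 and 5 members at an unadjusted p under 0.05. Leaving out a further library gave 7 to 973 genes, 0 to 8 members and medians of 0.38 to 0.53. With 8 libraries, 1052 genes and 9 members passed with quality weights, 0 to 266 and 0 to 4 with a library left out, and the median was 0.18 and 0.23 under the 2 length corrections. The cause was not tested. The replicate block gave 559 genes and 6 members (Rps24, Rps15a, Rps29, Rps21, Rps27l and Rps27) without AP_OCA replicate 2. In that fit AP replicate 2 had no partner, so the fold changes rested on replicates 1, 3 and 4 only. They equalled those without AP replicate 2 (Rps13 at 0.77 in both), where 12 genes and 0 members passed without the block. With 8 libraries the block gave 0 and 0 (1538 and 10 at an unadjusted p under 0.05, limma). Same-numbered libraries, as deviations from their group means, correlated at -0.17, 0.034, 0.12 and -0.026. The AP_OCA mean included the outlying replicate 2, so these correlations cannot decide whether the numbers pair the samples. Signs turned for genes with small changes. In 8 libraries Rps4l was at 0.39 with weights and ran from -0.38 to 0.37 with a library left out (0.37 without AP_OCA replicate 2), Rps2 ran from -0.020 to 0.12 (-0.020, -0.017 and -0.0087 without AP replicate 1, AP_OCA replicate 1 and AP_OCA replicate 2), and under the 2 length corrections Rps2 was at -0.14 and -0.085, Rps27l at -0.12 and -0.058 and Rps6 at -0.26 and -0.20. In 7 libraries Rps2 was at 0.053 with weights, 0.029 with copies summed and from -0.11 to 0.095 with a library left out. Under the length corrections Rps3 was at -0.055 and -0.015, Rps4x at -0.14, -0.081 and -0.12, Rps6 at -0.27, -0.22 and -0.35 and Rps9 at -0.14, -0.11 and -0.17. Unknown depth limits what can be said of members near 1 CPM. The shortest-transcript correction, the correction without AP replicate 3 and the summed copies were chosen after seeing the data.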
